A study of Mus musculus with 12 samples.

Results

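The genes described here are 40 genes of mitosis and of the G2/M transition, the step by which a cell that has copied its DNA enters division. They were named with earlier results of these data known, and each was looked up in the gene column of the deposited count matrix, which holds 43453 distinct gene entries. All 40 were found. Where a gene had several transcript rows, as 31 of the 40 did, the row with the highest total was used. All 40 passed the low-count filter in every comparison.

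The libraries were made from bone marrow-derived macrophages (BMDMs), primary cells grown out of the marrow of C57BL/6 mice for 7 days in 50 ng/mL M-CSF, the growth factor that drives marrow precursors to divide and become macrophages. The column headings give 4 groups of 3 libraries each. LPS- tlr4f/f denotes untreated cells with both alleles of the LPS receptor gene Tlr4 flanked by loxP sites, and LPS- tlr4f/f-lysM-cre denotes untreated cells with the same alleles and Cre recombinase under the control of lysM, the lysozyme gene of myeloid cells. LPS+ tlr4f/f denotes the floxed cells after 6 h with 1 µg/mL lipopolysaccharide (LPS), and LPS+ tlr4f/f-lysM-cre those with Cre after the same treatment. All 4 groups therefore carry the floxed Tlr4 alleles, so that no group is a wild type without loxP sites. Deletion by lysM-cre acts only in cells that switch the lysozyme gene on. Below, these groups are called LPS- f/f, LPS- cre, LPS+ f/f and LPS+ cre, and 3 values in a row are libraries 1, 2 and 3. Nothing in the labels says whether the 3 libraries of a group came from separate mice or cultures, so the p-values measure the spread between these libraries, which may be technical.

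The headings of 2 groups may be exchanged. Tlr4 stood at 76.9 to 146 CPM (read counts scaled to library size with TMM factors) in the 3 LPS- f/f and the 3 LPS- cre libraries and at 24.4 to 31.2 CPM in the 6 LPS+ libraries. Lyz2, the lysozyme gene whose locus drives Cre, stood at 5951 to 23323 CPM in the 6 LPS- libraries, at 10.4 to 14.4 CPM in LPS+ f/f and at 52.4 to 75.3 CPM in LPS+ cre. Il1b, a cytokine gene that LPS induces in macrophages, stood at 0.0749 to 6.95 CPM in LPS- f/f and at 2.69 to 3.61 CPM in LPS+ f/f, against 1633 to 8221 CPM in LPS- cre and 2487 to 2670.0 CPM in LPS+ cre. Thus the libraries labelled LPS+ f/f had the low Il1b of untreated cells, and those labelled LPS- cre had high Il1b with undiminished Tlr4 and Lyz2. Each comparison is therefore given in both readings, as headed and with the headings LPS- cre and LPS+ f/f exchanged. Exchanging them moves no value from 1 library to another, it only changes what a difference between groups is called, and the heading used in the text is always the deposited one. Total counts over the rows used, 1 per gene entry, ran from 33577440 to 56445989 per library.

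Macrophages grown in M-CSF include cells that are still dividing, and a dividing cell makes most of its mitotic messengers only from late S phase until it has divided. In G2 the kinase CDK1, bound to cyclin B, is held inactive until CDC25 phosphatases switch it on, after which the Aurora and Polo-like kinases build the spindle and the anaphase-promoting complex (APC/C) ends mitosis by marking cyclin B and securin for destruction. Many of these genes are regulated together, by the DREAM complex and by MuvB with B-MYB and FOXM1. These act at a CHR element of sequence TTTGAA, often beside CCAAT boxes bound by NF-Y. In a bulk library, fewer dividing cells and less messenger per dividing cell cannot be told apart.

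Promoter stretches are shown for 4 members that hold both motifs before their start and for Cdc25b, a member that held CCAAT without TTTGAA, as Ccnb1, Bub1 and Cenpe also did. Each is the 100 bases before the RefSeq transcription start on the GRCm38.p6 build, written 5′ to 3′ along the gene's strand, with TTTGAA or CCAAT in capitals in either orientation (TTCAAA and ATTGG on the opposite strand).
Cdk1: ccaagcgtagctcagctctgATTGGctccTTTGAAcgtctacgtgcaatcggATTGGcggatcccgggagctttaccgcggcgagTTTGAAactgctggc
Cdc20: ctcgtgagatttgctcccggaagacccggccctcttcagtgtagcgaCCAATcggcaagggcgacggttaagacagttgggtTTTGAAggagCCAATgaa
Top2a: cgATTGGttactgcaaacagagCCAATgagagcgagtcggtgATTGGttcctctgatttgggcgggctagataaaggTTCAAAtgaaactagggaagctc
Kif11: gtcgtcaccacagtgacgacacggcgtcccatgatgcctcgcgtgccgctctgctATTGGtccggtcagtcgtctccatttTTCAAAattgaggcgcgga
Cdc25b: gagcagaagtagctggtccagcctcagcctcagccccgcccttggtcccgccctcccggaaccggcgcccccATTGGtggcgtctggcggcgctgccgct
Cdk1 is the minus-strand stretch chr10:69352913-69353012, Cdc20 chr4:118437344-118437443 (minus), Top2a chr11:99024190-99024289 (minus), Kif11 chr19:37376282-37376381 (plus) and Cdc25b chr2:131186848-131186947 (plus). GENCODE M21 sets the start of Cdk1 26 bases and that of Cdc20 9 bases further upstream, so the 3′ ends of these 2 stretches lie inside the annotated gene, and the other 3 lie wholly before it. The 6-base motif began 15 and 71 bases before the start of Cdk1, 18 bases before Cdc20, 23 bases before Top2a and 19 bases before Kif11.

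RefSeq promoter windows, each of 250 bases before and 50 bases after the start, were at hand for 34 of the 40 members, and Ccna2, Cdc25c, Kif20a, Aurkb, Tpx2 and Dlgap5 were not matched. Searching both strands, TTTGAA was present in 27 of the 34 windows, against 18.1% of the 27025 windows of all genes. CCAAT was present in 28 of the 34, against 37.9% of all windows, and both motifs in 24 of the 34, against 7.12% of all. In all 28 windows a CCAAT match lay before the start, whereas TTTGAA lay before the start in 12 members and only after it in the other matched ones. Within 50 bases to either side of the start, TTTGAA was present in 24 members, against 4.92% of all genes. Only in Cdca8 did a match of one motif overlap a match of the other. Birc5, Nuf2 and Nusap1 held neither. A match describes these letters and is no evidence of binding.

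**Figure D1:**
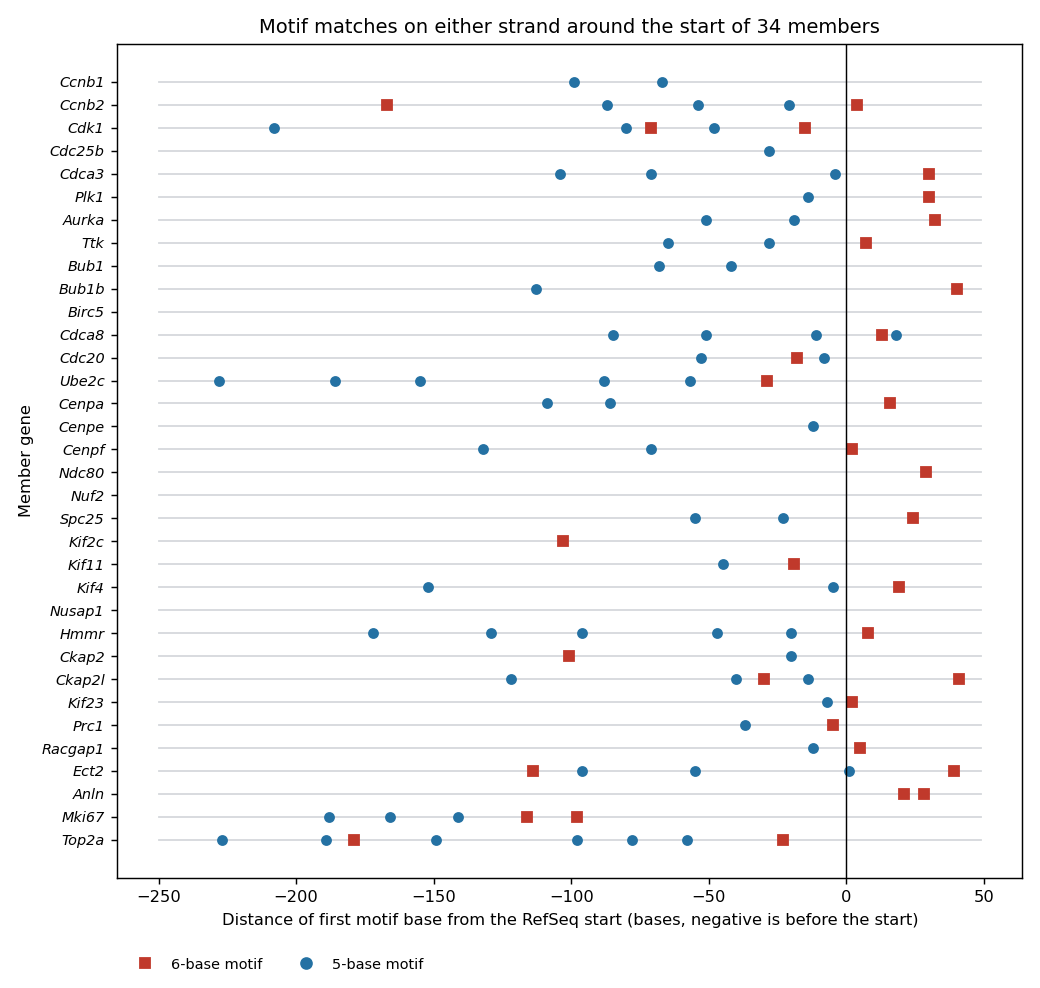
Positions of the motifs TTTGAA (squares) and CCAAT (circles), on either strand, in the promoter windows of 34 members. The x axis is the distance in bases of the first motif base from the RefSeq start and grey lines are the window searched. TTTGAA was present in 27 members, mostly close to the start, and CCAAT in 28, mostly before it.

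The 40 members kept nearly the same order of groups. By mean CPM, 39 of the 40 were highest in LPS+ f/f and 39 of the 40 were lowest in LPS- cre. The exceptions were Ckap2l, highest in LPS+ cre, and Tpx2, lowest in LPS- f/f. Between these extremes 27 members followed the order LPS+ f/f, LPS+ cre, LPS- f/f, LPS- cre, and 11 had LPS- f/f above LPS+ cre. The middle 2 groups overlapped in most members: only 4 members had LPS+ cre and LPS- f/f libraries apart, 2 higher in LPS+ cre, against 28.9% of all genes, and 2 lower, against 29.0%. The median of the 40 was 52.5, 55.1 and 62.1 CPM in LPS+ f/f, 19.0, 20.2 and 28.4 CPM in LPS+ cre, 20.6, 29.7 and 6.02 CPM in LPS- f/f and 7.14, 4.81 and 1.51 CPM in LPS- cre. As a share of all counts the 40 together took 0.338% to 0.402% in LPS+ f/f and 0.0147% to 0.0384% in LPS- cre.

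**Figure D2:**
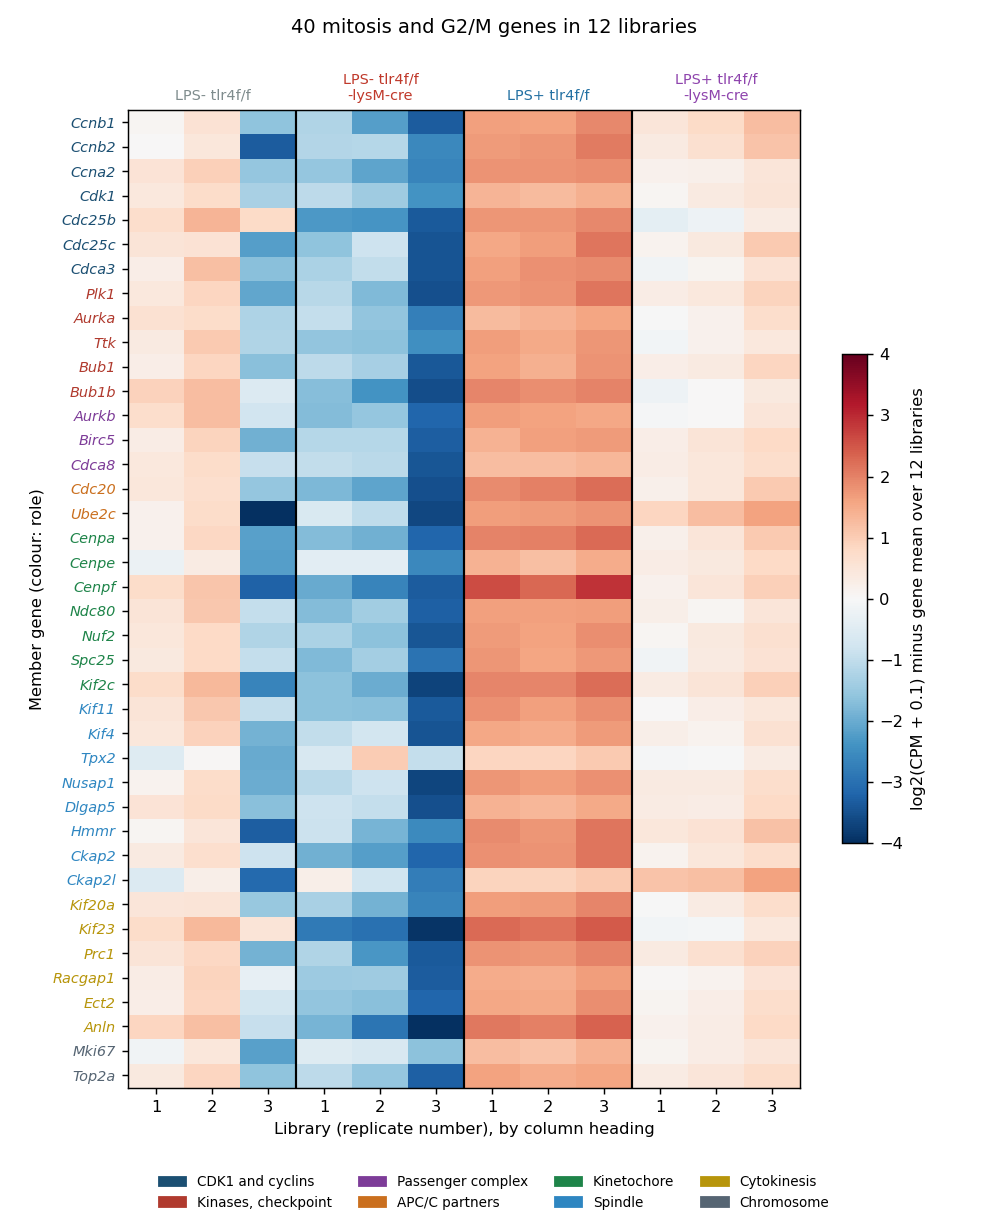
Level of each of the 40 members (rows, coloured by role) in each of the 12 libraries (columns, by heading), as log2(CPM + 0.1) minus the gene's mean over the libraries. Red is above and blue below that mean. The LPS+ f/f columns are red in all rows, LPS- cre is blue in nearly all, and library 3 of LPS- f/f and of LPS- cre is the bluest of its group in nearly all rows.

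The spread was uneven between groups. The SD of log2 CPM between the 3 libraries, as a median over the 40 members, was 1.27 in LPS- f/f and 1.04 in LPS- cre but 0.12 in LPS+ f/f and 0.29 in LPS+ cre. Over all genes tested the same median was 0.33, 0.37, 0.12 and 0.13. The members thus varied between replicates more than the typical gene in both LPS- groups, and in LPS+ cre. Library 3 of LPS- f/f held the lowest value of its group in 39 of 40 members and library 2 the highest in 40 of 40. Library 3 of LPS- cre held the lowest in 40 of 40. In LPS+ cre, library 3 was the highest in 40 of 40. The members moved up and down together between replicates, so the 40 genes are not 40 independent observations.

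Other cell types and library composition moved too. The summed CPM of 6 macrophage markers was 4997 to 6101 in LPS- f/f, 7947 to 9199 in LPS- cre, 3944 to 4142 in LPS+ f/f and 5668 to 5833 in LPS+ cre, above every other marker list in every library. Adgre1, for the macrophage antigen F4/80, stood at 628 to 4382 CPM. That of 5 stromal markers was 657, 60.2 and 8.71 CPM in LPS- f/f and 921, 136 and 1460.3 CPM in LPS- cre, against 20.0 to 43.0 CPM in the 6 LPS+ libraries. Stromal markers were lowest in LPS- f/f library 3 and highest in LPS- cre library 3, both of which were low in the members. Summed neutrophil markers reached 33.6 CPM in LPS- cre library 3 and were 0.112 to 6.09 CPM elsewhere. Progenitor markers summed to 9.49 to 15.2 CPM in LPS+ f/f, where the members were highest, and to 0.934 to 7.43 CPM in the other groups. Most of the LPS+ f/f sum was Cd34, with 575, 453 and 351 counts there, and Gata2 was also highest there, with 121, 105 and 129. Kit did not follow, with 28, 18 and 62 counts in LPS+ f/f and 13, 73 and 193 in LPS- f/f, so the list did not move as a whole. B cell, T cell, dendritic, erythroid and mast cell markers stayed between 0 and 8.91 CPM per list. Fcer1a, the IgE receptor gene of mast cells, had 0 counts in all 12 libraries. The part of any of these in the member levels was not tested.

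Among CDK1 and its cyclins, Ccnb1, which encodes cyclin B1, stood at 22.8, 32.1 and 6.97 CPM in LPS- f/f, 9.15, 4.55 and 2.05 in LPS- cre, 67.5, 65.5 and 81.3 in LPS+ f/f and 30.0, 36.2 and 50.0 in LPS+ cre. Ccnb2, for cyclin B2, stood at 16.1, 22.1 and 1.52 CPM in LPS- f/f, 7.11, 7.29 and 2.61 in LPS- cre, 52.6, 55.0 and 68.5 in LPS+ f/f and 20.5, 25.2 and 35.8 in LPS+ cre. Ccna2, for cyclin A2, which acts from S phase until early mitosis, stood at 48.0, 63.3 and 11.1 CPM in LPS- f/f, 11.1, 7.38 and 5.13 in LPS- cre, 113, 114 and 118 in LPS+ f/f and 36.5, 37.2 and 45.7 in LPS+ cre. In these 3 genes LPS+ f/f was above every other library, and the lowest library was library 3 of LPS- cre for Ccnb1 and Ccna2 and library 3 of LPS- f/f for Ccnb2. Cdk1 itself stood at 39.5, 48.9 and 11.9 CPM in LPS- f/f, 14.1, 10.9 and 5.57 in LPS- cre, 75.3, 70.2 and 79.0 in LPS+ f/f and 30.8, 37.7 and 42.2 in LPS+ cre, so that LPS- f/f library 3 lay between LPS- cre libraries 1 and 2. Cdc25c, a phosphatase that activates CDK1, was the scarcest member, at 2.93, 3.04 and 0.356 CPM in LPS- f/f, 0.590, 1.09 and 0.0933 in LPS- cre, 6.04, 6.57 and 9.24 in LPS+ f/f and 2.23, 2.66 and 4.27 in LPS+ cre. Its relative Cdc25b, which starts CDK1 activation at the centrosome, stood at 32.3, 50.7 and 33.4 CPM in LPS- f/f, 3.94, 3.74 and 1.80 in LPS- cre, 66.8, 67.7 and 74.8 in LPS+ f/f and 14.8, 17.0 and 24.6 in LPS+ cre. Unlike the cyclins, Cdc25b was not low in LPS- f/f library 3, and all LPS- f/f libraries were above all LPS+ cre libraries.

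For the mitotic kinases, Plk1, the Polo-like kinase, stood at 19.2, 25.8 and 3.30 CPM in LPS- f/f, 6.52, 4.17 and 1.15 in LPS- cre, 47.5, 49.7 and 63.1 in LPS+ f/f and 17.5, 19.2 and 26.4 in LPS+ cre. Aurka, the centrosomal Aurora kinase, stood at 21.5, 23.3 and 5.90 CPM in LPS- f/f, 7.16, 4.61 and 2.02 in LPS- cre, 33.9, 37.1 and 42.3 in LPS+ f/f and 13.8, 15.9 and 22.9 in LPS+ cre. Ttk, the kinase that starts the spindle checkpoint, stood at 7.68, 12.4 and 2.51 CPM in LPS- f/f, 1.91, 1.84 and 0.995 in LPS- cre, 18.9, 17.2 and 20.3 in LPS+ f/f and 5.45, 6.63 and 8.01 in LPS+ cre. All 3 had LPS+ f/f libraries above all others. Bub1b, whose product BUBR1 holds back APC/C until chromosomes are attached, stood at 38.0, 46.6 and 13.7 CPM in LPS- f/f, 6.04, 3.74 and 1.62 in LPS- cre, 76.9, 73.0 and 79.1 in LPS+ f/f and 17.3, 20.0 and 26.0 in LPS+ cre, with LPS- cre below every other group. In the chromosomal passenger complex, which corrects wrong attachments, the kinase gene Aurkb stood at 22.9, 33.5 and 8.38 CPM in LPS- f/f, 4.16, 4.76 and 1.49 in LPS- cre, 45.5, 43.8 and 41.5 in LPS+ f/f and 13.7, 14.4 and 19.8 in LPS+ cre, and Birc5, for survivin, at 20.6, 31.7 and 4.38 CPM in LPS- f/f, 7.65, 7.54 and 1.62 in LPS- cre, 44.6, 52.7 and 54.7 in LPS+ f/f and 20.3, 24.4 and 29.7 in LPS+ cre. Here too the groups LPS+ f/f and LPS+ cre did not overlap.

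The APC/C partners Cdc20 and Ube2c had the same order of group means. Cdc20, the APC/C activator of anaphase, stood at 14.9, 17.4 and 3.65 CPM in LPS- f/f, 3.09, 2.46 and 0.871 in LPS- cre, 40.4, 44.0 and 51.5 in LPS+ f/f and 12.7, 15.02 and 22.6 in LPS+ cre. Ube2c, the ubiquitin-conjugating enzyme of APC/C, stood at 21.5, 31.9 and 0.731 CPM in LPS- f/f, 12.4, 9.47 and 1.43 in LPS- cre, 61.6, 62.7 and 67.1 in LPS+ f/f and 34.8, 44.9 and 57.8 in LPS+ cre. Ube2c was nearly as high in LPS+ cre library 3 as in LPS+ f/f, and its value in LPS- f/f library 3 was lower than in any LPS- cre library. It had the largest replicate SD among the 40 in both LPS- groups, 2.95 in LPS- f/f and 1.67 in LPS- cre on the log2 scale. Ube2c overlaps Tnnc2 on the opposite strand, and the strand setting of the counting is not given in the sources used here. In 10 of the 40 members a protein-coding gene lies over part of the gene on the opposite strand. These overlaps ran from 53 bases in Cdc20 to 21810 bases in Prc1, introns included. If strand was ignored in the counting, reads within such an overlap could not be told apart.

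At the kinetochore, Cenpa, the histone variant that marks the centromere, stood at 15.2, 24.1 and 2.92 CPM in LPS- f/f, 3.998, 3.52 and 1.43 in LPS- cre, 53.6, 55.2 and 66.0 in LPS+ f/f and 15.6, 19.1 and 28.1 in LPS+ cre. Cenpf, a large protein of the kinetochore corona, stood at 19.5, 25.4 and 1.16 CPM in LPS- f/f, 2.82, 1.81 and 1.09 in LPS- cre, 72.2, 58.3 and 87.6 in LPS+ f/f and 13.3, 16.5 and 23.0 in LPS+ cre. Ndc80, which holds the microtubule, stood at 16.9, 25.2 and 6.15 CPM in LPS- f/f, 3.49, 4.52 and 1.15 in LPS- cre, 37.1, 37.4 and 37.8 in LPS+ f/f and 13.9, 12.6 and 16.7 in LPS+ cre. Cenpf had the largest contrast of these between the LPS+ groups, while the 3 Ndc80 values in LPS+ f/f were the tightest of all members there, with a log2 SD of 0.012. Of the spindle genes, Kif11, the motor that pushes the poles apart, stood at 41.7, 61.3 and 15.03 CPM in LPS- f/f, 9.36, 9.06 and 2.74 in LPS- cre, 104, 91.6 and 105 in LPS+ f/f and 29.5, 35.5 and 40.2 in LPS+ cre, and Hmmr, a spindle assembly factor, at 14.2, 18.8 and 1.27 CPM in LPS- f/f, 7.27, 3.58 and 2.18 in LPS- cre, 49.7, 45.6 and 58.8 in LPS+ f/f and 18.5, 19.9 and 30.3 in LPS+ cre. Tpx2, which activates Aurora A on the spindle, stood at 35.8, 53.7 and 12.8 CPM in LPS- f/f, 33.1, 104 and 26.4 in LPS- cre, 93.8, 93.6 and 107 in LPS+ f/f and 49.6, 51.3 and 65.4 in LPS+ cre. The Tpx2 value in LPS- cre library 2 was as high as in LPS+ f/f, whereas in the other 39 members every LPS- cre library was below every LPS+ f/f library. The share of all genes that are apart between these 2 groups is not given here, so that count only sets Tpx2 against the other members.

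Of the cytokinesis genes, Kif23, whose product with that of Racgap1 forms centralspindlin at the midzone, stood at 20.5, 30.3 and 17.5 CPM in LPS- f/f, 1.64, 1.46 and 0.715 in LPS- cre, 59.0, 55.4 and 66.5 in LPS+ f/f and 11.4, 11.6 and 16.3 in LPS+ cre. Kif20a, a midzone kinesin, stood at 27.5, 28.0 and 6.73 CPM in LPS- f/f, 7.92, 5.23 and 3.02 in LPS- cre, 61.9, 63.8 and 76.4 in LPS+ f/f and 19.5, 24.4 and 32.0 in LPS+ cre. Prc1, which bundles midzone microtubules, stood at 35.4, 44.0 and 6.69 CPM in LPS- f/f, 10.8, 4.86 and 2.36 in LPS- cre, 87.3, 84.2 and 98.8 in LPS+ f/f and 32.0, 39.2 and 47.0 in LPS+ cre. In Kif23, as in Cdc25b, all 4 groups were apart from each other, with LPS- f/f above LPS+ cre. Ect2, the exchange factor that switches on RhoA for furrowing, stood at 15.2, 23.3 and 7.59 CPM in LPS- f/f, 4.19, 3.96 and 1.31 in LPS- cre, 37.7, 36.7 and 46.6 in LPS+ f/f and 13.6, 15.4 and 20.9 in LPS+ cre, and Anln, for the scaffold anillin, at 33.3, 43.0 and 9.59 CPM in LPS- f/f, 5.02, 2.34 and 0.995 in LPS- cre, 80.4, 74.5 and 94.6 in LPS+ f/f and 20.9, 22.4 and 32.0 in LPS+ cre. Mki67, the proliferation antigen that coats mitotic chromosomes, stood at 193, 291 and 47.1 CPM in LPS- f/f, 148, 134 and 67.3 in LPS- cre, 491, 463 and 549 in LPS+ f/f and 230, 260 and 293 in LPS+ cre. Top2a, the topoisomerase that untangles sister chromatids, stood at 166, 231 and 41.7 CPM in LPS- f/f, 62.0, 43.6 and 13.1 in LPS- cre, 389, 360 and 385 in LPS+ f/f and 162, 180 and 213 in LPS+ cre. In both genes LPS- cre libraries 1 and 2 lay within the range of LPS- f/f, below its libraries 1 and 2 but above its library 3. Per kilobase of the transcript row used, Top2a had the highest level in LPS+ f/f, a mean of 72.5 CPM per kb, followed by Ube2c at 68.5 and Mki67 at 49.7, and Cdc25c had the lowest of the named members at 3.75.

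**Figure D3:**
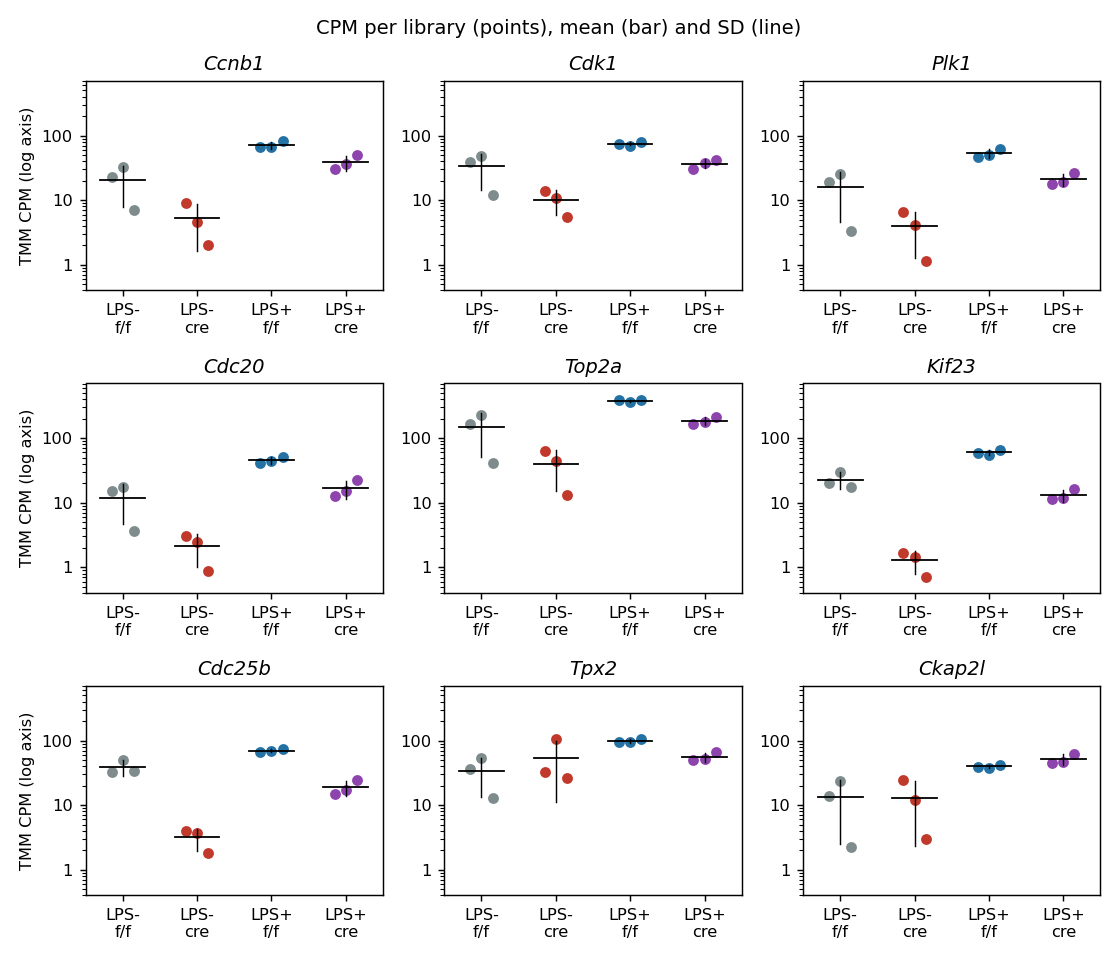
CPM of 9 members on a log axis in the 4 groups by heading, with 1 point per library, a bar for the mean and a line for the SD (n = 3). Ccnb1, Cdk1, Plk1, Cdc20 and Top2a show the common order, Kif23 and Cdc25b lack the low value of LPS- f/f library 3, and Tpx2 and Ckap2l depart from the common order in LPS- cre library 2 and in LPS+ cre.

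The first comparison, LPS+ cre against LPS+ f/f, asks as headed how loss of Tlr4 changes LPS-treated cells, and with headings exchanged how LPS changes cells with Cre. The libraries of the 2 groups did not overlap in any of the 40 members: 39 were lower in LPS+ cre and Ckap2l was higher. Over all 14551 genes tested, 34.9% had LPS+ cre wholly below LPS+ f/f. By edgeR's quasi-likelihood test, with p-values adjusted over all genes by the Benjamini-Hochberg method, 38 of the 40 were lower at an adjusted p below 0.05, against 31.0% of all genes. A differentially expressed gene (DEG) is called below at an adjusted p below 0.01 and a change above 2-fold, and 10.9% of all genes were lower DEGs by that rule. The share of members past it was 31 of 40, with 0 higher. The authors of the data reported the G2/M transition among the terms of genes that were higher in LPS-treated cells with Cre. As headed, the members went the other way here. With headings exchanged, that contrast is LPS+ cre against LPS- cre, which is given below.

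By role, lower DEGs in LPS+ cre were 5 of 7 CDK1 and cyclin genes, 5 of 5 kinase and checkpoint genes, 2 of 3 passenger genes, 1 of 2 APC/C partners, 6 of 7 kinetochore genes, 5 of 8 spindle genes, 6 of 6 cytokinesis genes and 1 of 2 chromosome genes. Over all genes the share of lower DEGs was 10.9%. The largest decreases, as log2 fold changes, were -2.19 ± 0.15 (SE, adjusted p = 6.32e-06) in Kif23 and -2.04 ± 0.27 (SE, adjusted p = 0.00187) in Cenpf. Cdc25b followed at -1.88 ± 0.20 (SE, adjusted p = 0.000339) and Bub1b at -1.84 ± 0.14 (SE, adjusted p = 1.9e-05). The smallest calls were near 2-fold: Cdk1 fell by 1.01 and Top2a fell by 1.02 on the log2 scale. Mki67 (log2 fold change -0.93, adjusted p = 2.67e-05) and Ccnb1 (-0.87, adjusted p = 0.0186) missed the fold limit and, for Ccnb1, the limit on p too. Ube2c did not pass either limit, with a log2 fold change of -0.46 ± 0.19 (SE, adjusted p = 0.0827). With all 12 libraries in a single fit, where all groups share the same estimate of spread, the lower DEGs were 2 of 40. In that fit 13 members were lower at an adjusted p below 0.05, and the median log2 fold change was -1.28. The shares of all genes called by it in this comparison are not given here, so these counts cannot be set against them.

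Ckap2l, a spindle-associated protein gene, was the member that went against the rest, at 14.0, 23.9 and 2.27 CPM in LPS- f/f, 24.1, 11.8 and 2.95 in LPS- cre, 38.5, 38.2 and 42.5 in LPS+ f/f and 45.2, 47.1 and 62.6 in LPS+ cre. Its log2 fold change in LPS+ cre was 0.39 ± 0.13 (SE, adjusted p = 0.0294), short of the 2-fold limit. The gene Il1a, looked at after these values were seen, lies on the same strand of chromosome 2 (chr2:129299610-129309972, GRCm38) and ends 2397 bases upstream of Ckap2l. Il1a had 159492, 14363 and 39262 counts in LPS- cre, 17393, 15418 and 19575 in LPS+ cre, 185, 143 and 9 in LPS- f/f and 38, 27 and 44 in LPS+ f/f. Within the LPS- cre libraries Ckap2l was highest in library 1, where Il1a was highest too, but was lowest in library 3, where Il1a was not. Whether reads running on from Il1a add to the Ckap2l count was not tested.

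The comparison LPS- cre against LPS- f/f asks as headed how loss of Tlr4 changes untreated cells, and with headings exchanged how LPS changes floxed cells. Here 39 of the 40 members were lower in LPS- cre, with a median log2 fold change of -2.01 against -0.08 over all genes, but the LPS- groups were spread widely. In 16 members the groups did not overlap, against 29.1% of all genes wholly lower in LPS- cre. At an adjusted p below 0.05, 15 members were lower (edgeR), against 19.4% of all genes. Lower DEGs were 2 of 40, against 7.81% of all genes. These were Kif23, with a log2 fold change of -4.17 ± 0.40 (SE, adjusted p = 0.001), and Cdc25b, with -3.63 ± 0.37 (SE, adjusted p = 0.00117). The count of lower DEGs depended on the fit. DESeq2 called 20 of 40, against 12.9% of all genes, the single fit of all 12 libraries 17, against 14.3%, and the fit with a replicate block 22, against 7.05%. Anln had -3.37 ± 0.78 (SE, adjusted p = 0.0172) and Bub1b -3.12 ± 0.64 (SE, adjusted p = 0.0114), and neither was a DEG. The smallest negative values were -0.62 ± 0.64 (SE, adjusted p = 0.474) in Mki67, -0.50 ± 0.76 (SE, adjusted p = 0.628) in Cenpe and -0.07 ± 0.96 (SE, adjusted p = 0.964) in Ckap2l. Tpx2 was the only member with a positive value, 0.65 ± 0.68 (SE, adjusted p = 0.481). Without LPS- f/f library 3 the members lower at an adjusted p below 0.05 became 28 and the DEGs 7, and leaving out any other library of the pair of groups left 4 to 8 members at the first limit. Shares of all genes in these fits without a library are not given here.

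The comparison LPS+ f/f against LPS- f/f gives as headed the effect of LPS in floxed cells, and with headings exchanged that of the Cre genotype without LPS. All 40 members were higher in LPS+ f/f, and in all 40 the groups did not overlap, against 17.2% of all genes wholly higher. The median log2 fold change was 1.50, with a range from 0.86 in Cdc25b to 2.25 in Cenpf. However, edgeR called 0 members as DEGs, as it did 0 of all 14712 genes tested, and 1 member at an adjusted p below 0.05, Kif23, with 1.42 ± 0.22 (SE, adjusted p = 0.0488), against 0.605% of all genes. At an unadjusted p below 0.05 there were 30 of 40, a limit for which the share of all genes is not given here. DESeq2 called 10 of 40 as higher DEGs, against 1.64% of all genes. Without LPS- f/f library 3, edgeR called 37 members higher at an adjusted p below 0.05, 6 of them DEGs, and the median was 1.08, so that the number of calls rests on that library. How many of all genes that fit called is not given here, so the rise may not be particular to the members.

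The comparison LPS+ cre against LPS- cre gives as headed the effect of LPS in cells with Cre, and with headings exchanged that of the Cre genotype under LPS. All 40 members had a positive log2 fold change, and in 39 the groups did not overlap, against 25.2% of all genes wholly higher. The exception was Tpx2, with 0.05 ± 0.49 (SE, adjusted p = 0.951). By edgeR 32 were higher at an adjusted p below 0.05, against 12.5% of all genes, and 11 were DEGs, against 2.42%. The DEGs were Ccna2, Cdk1, Cdc25b, Ttk, Cdc20, Cenpa, Cenpf, Ckap2, Kif20a, Kif23 and Anln. Their largest log2 fold changes were 3.37 ± 0.34 (SE, adjusted p = 0.00207) in Kif23, 3.22 ± 0.39 (SE, adjusted p = 0.00327) in Cenpf and 3.18 ± 0.55 (SE, adjusted p = 0.00958) in Anln. Leaving out any 1 of the 3 LPS+ cre libraries took the DEGs to 0, with 10 to 21 members still past an adjusted p of 0.05, whereas without LPS- cre library 3 the DEGs were 32 and without LPS- cre library 2 they were 6. For these fits too, shares of all genes are not given here. DESeq2 called 37 members, against 5.53% of all genes, the single fit 17, against 3.56%, and the fit with a replicate block 0, against 0.365%.

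**Figure D4:**
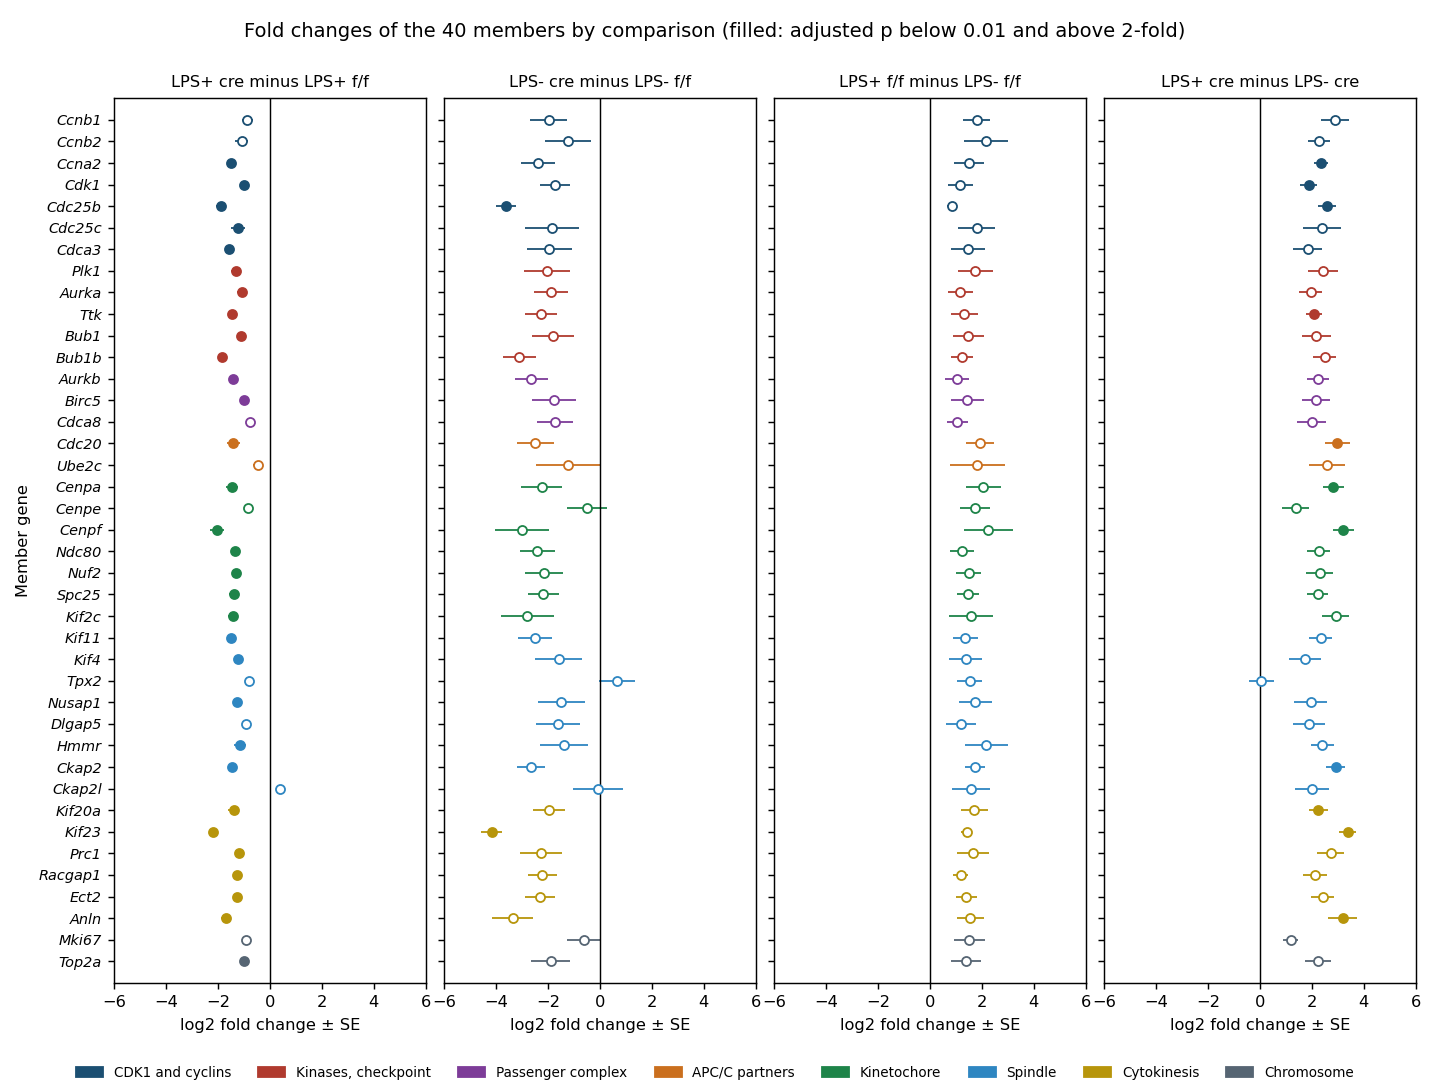
Log2 fold change with its SE of each of the 40 members (rows, coloured by role) in 4 comparisons by heading, n = 3 libraries per group. Filled points are DEGs by edgeR. In the first panel 31 points are filled with short error bars, while the next panels have equal or larger changes with longer bars, with 2 filled points for LPS- cre against LPS- f/f and 0 for LPS+ f/f against LPS- f/f.

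The comparison LPS+ cre against LPS- f/f does not depend on the exchange, since it uses neither of the headings concerned. Whether its own headings are right was not tested. It changes genotype and treatment together. Of the members, 29 were higher and 11 lower, with a median log2 fold change of 0.25. By edgeR 0 of 40 were DEGs, against 13.4% of all genes. An unadjusted p below 0.05 was found in 3, a limit for which the share of all genes is not given here. At an adjusted p below 0.05, 2 were lower, against 20.4% of all genes. These were Cdc25b, with -1.04 ± 0.26 (SE, adjusted p = 0.0216), and Kif23, with -0.79 ± 0.25 (SE, adjusted p = 0.0458). DESeq2 called 1 member higher and 1 lower, against 20.3% of all genes in either direction. The highest log2 fold change was that of Ckap2l, 1.95 ± 0.75 (SE, adjusted p = 0.0831). The median depended on single libraries: it was -0.16 with 12 of 40 higher without LPS- f/f library 3, 0.65 with 37 higher without LPS- f/f library 2, and 0.09 with 23 higher without LPS+ cre library 3. It was 0.38 without LPS- f/f library 1.

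The interaction, the difference between the LPS+ minus LPS- changes in the cre and f/f columns, is the same number in both readings. It was positive in 37 of 40 members with a median of 0.77 (log2), but edgeR called 0 as DEGs, against 0.994% of all genes. An unadjusted p below 0.05 was found in 2 members, and the share of all genes at that limit is not given here. These 2 were also past an adjusted p of 0.05, against 4.13% of all genes higher at that limit. They were Kif23, at 1.95 ± 0.40 (SE, adjusted p = 0.0178), and Cdc25b, at 1.72 ± 0.41 (SE, adjusted p = 0.0317). DESeq2 called 2 members by the DEG rule, against 4.16% of all genes. The lowest interaction was that of Tpx2, -1.50 ± 0.77 (SE, adjusted p = 0.273).

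Other cell cycle genes were counted in 7 lists. In LPS+ cre against LPS+ f/f, lower DEGs were 20 of 29 other spindle and cytokinesis genes (median log2 fold change -1.37), 16 of 36 other kinetochore and checkpoint genes (-0.90), 9 of 19 condensin and cohesion genes (-0.99), 10 of 23 G2/M regulators (-0.67) and 1 of 17 APC/C subunits and inhibitors (-0.04). The median over all genes was -0.02, and 10.9% of all genes were lower DEGs. Of the 17 APC/C genes, 6 were higher and 6 lower at an adjusted p below 0.05, against 30.5% and 31.0% of all genes. The single DEG there was Fbxo5, for the APC/C inhibitor EMI1, with a log2 fold change of -2.12 ± 0.08 (SE, adjusted p = 3.28e-10). The largest decreases of the spindle list were -2.82 ± 0.21 (SE, adjusted p = 1.65e-07) in Depdc1b and -2.57 ± 0.22 (SE, adjusted p = 2.28e-06) in Sapcd2. Esco2, the acetyltransferase that sets cohesion in S phase, led the cohesion list with -2.52 ± 0.12 (SE, adjusted p = 3.13e-09), and Nsl1, of the kinetochore's MIS12 complex, led the kinetochore list with -1.66 ± 0.12 (SE, adjusted p = 2.28e-07). Pttg1, for the anaphase inhibitor securin, went the other way and was named after its values were seen. It rose, with a log2 fold change of 1.44 ± 0.09 (SE, adjusted p = 2.82e-08), and it was also a higher DEG in LPS- cre against LPS- f/f, with 2.10 ± 0.20 (SE, adjusted p = 0.000938).

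The regulators Foxm1 and Mybl2 and the CDK1 inhibitor gene Wee1, all fixed by name, were lower DEGs in LPS+ cre against LPS+ f/f as well. Not all regulators fell: of the 23 G2/M regulators 20 had a negative and 3 a positive log2 fold change, the highest 0.49 in E2f5. At an adjusted p below 0.05, 2 of the 23 were higher, against 30.5% of all genes. Foxm1, for the transcription factor FOXM1, stood at 35.1, 53.4 and 6.95 CPM in LPS- f/f, 8.72, 12.2 and 2.74 in LPS- cre, 67.7, 59.9 and 66.5 in LPS+ f/f and 18.7, 22.0 and 26.0 in LPS+ cre, with a log2 fold change of -1.53 ± 0.11 (SE, adjusted p = 2.97e-06). Mybl2, for B-MYB, stood at 24.5, 23.4 and 6.07 CPM in LPS- f/f, 3.81, 2.99 and 1.80 in LPS- cre, 21.0, 16.8 and 20.1 in LPS+ f/f and 2.62, 3.04 and 2.17 in LPS+ cre, with -2.88 ± 0.14 (SE, adjusted p = 2.6e-09). Wee1, the kinase that holds CDK1 inactive, stood at 19.7, 24.3 and 11.6 CPM in LPS- f/f, 2.20, 6.85 and 3.67 in LPS- cre, 26.9, 26.6 and 28.1 in LPS+ f/f and 5.89, 6.88 and 8.58 in LPS+ cre, with -1.92 ± 0.12 (SE, adjusted p = 4.16e-08). Mybl2 was below the LPS- f/f level in LPS+ cre, a DEG there with -2.78 ± 0.55 (SE, adjusted p = 0.00985), whereas Foxm1 was not, with -0.51 ± 0.65 (SE, adjusted p = 0.562). Among 14 CDK inhibitors and growth-arrest genes, 2 were higher DEGs in LPS+ cre against LPS+ f/f, Gadd45b and Cdkn1a, for the inhibitor p21, and 1 was lower, Cdkn2c. These shares are near those of all genes, of which 10.8% were higher and 10.9% lower DEGs. Their log2 fold changes were 2.63 ± 0.09 (SE, adjusted p = 2.25e-09) for Gadd45b and -1.81 ± 0.09 (SE, adjusted p = 5.5e-09) for Cdkn2c. Cdkn1a stood at 178, 228 and 33.7 CPM in LPS- f/f, 1628, 1102 and 1484 in LPS- cre, 223, 232 and 183 in LPS+ f/f and 764, 902 and 701 in LPS+ cre, with 1.90 ± 0.12 (SE, adjusted p = 3.91e-06). It was highest where the members were lowest, in LPS- cre, and also lower than its group in LPS- f/f library 3, where the members were low.

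DNA replication and S phase genes did not follow the same order. In LPS+ cre against LPS+ f/f, 25 of 30 were lower DEGs, against 10.9% of all genes, with a median of -1.59, led by E2f2 and E2f7, both transcription factors of the E2F family. Their log2 fold changes were -3.64 ± 0.09 (SE, adjusted p = 6.33e-12) and -3.22 ± 0.13 (SE, adjusted p = 5.44e-10). Between LPS- cre and LPS- f/f, 14 of 30 were lower DEGs, against 7.81% of all genes, with a median of -2.14. In LPS+ cre against LPS- f/f, where 0 of the 40 mitosis members were DEGs and their median was 0.25, the replication list had 16 of 30 lower DEGs, against 6.45% of all genes, and a median of -1.57. Between LPS+ cre and LPS- cre it had 0 higher and 2 lower DEGs, against 2.42% and 3.66% of all genes, and its median was 0.63, while the members had 11 higher DEGs and a median of 2.27. In LPS+ f/f against LPS- f/f its median was 0.15, against 1.50 for the members. Cdc6, which loads the replicative helicase, is an example, with -2.91 ± 0.36 (SE, adjusted p = 0.00197) in LPS+ cre against LPS- f/f. No test of one list against another was made.

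**Figure D5:**
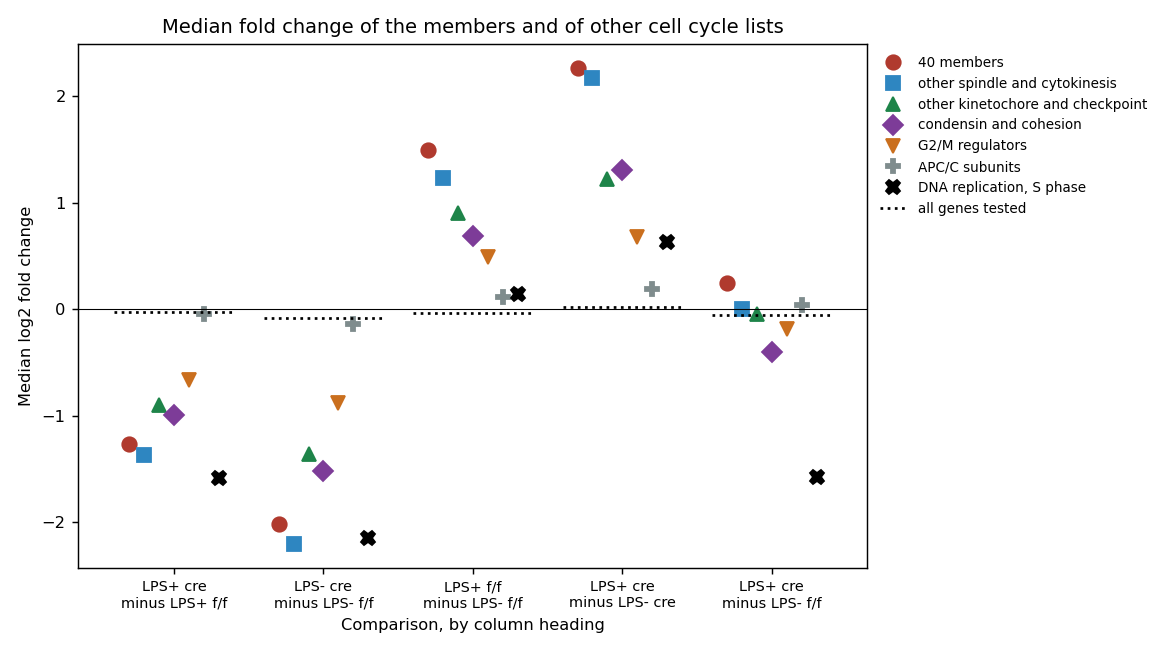
Median log2 fold change (y axis) of the 40 members and of 6 other cell cycle lists in 5 comparisons by heading (x axis), with the median of all genes tested as a dotted line. The 40 members lie close to the other spindle and cytokinesis genes in each comparison, and the replication list departs from them in the last 3, where its medians are 0.15, 0.63 and -1.57 against 1.50, 2.27 and 0.25 for the members.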

How the data were processed

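PolyA RNA was sequenced from 12 mouse BMDM libraries, 3 per group (paired-end reads on an Illumina platform, NEBNext Ultra libraries). The authors removed adapters and poor reads with Trimmomatic 0.36, aligned to mm10 with HISAT2 and counted with HTSeq. Strand setting and annotation version are not given in the sources used here. The deposited values are raw counts for 115140 transcript rows (106335 RefSeq, 8805 Ensembl), with 33577440 to 56445989 counts per library. Reads carry no molecular identifiers.

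From there, the transcript row with the highest total stood for each of 43453 gene entries. For each pair of groups, genes were kept by filterByExpr at 10 counts and tested with edgeR 4.0.16 in R 4.3.3 (TMM, glmQLFit, glmQLFTest) on the 6 libraries of that pair. The interaction was fitted on all 12 libraries. P-values were adjusted over all genes tested by Benjamini-Hochberg, and SEs were derived from the log2 fold change and F. CPM was scaled by TMM over 12 libraries, and log2 CPM used a prior count of 2. Non-overlap means that every library of one group lies above every library of the other. Groups came from the column headings, which match the sample titles. Alternatives were DESeq2 1.42.0, RLE size factors, a joint fit of all 12 libraries, a replicate block, filters of 1 count or of 10 counts in every library, sums over transcripts, a call at an adjusted p below 0.05 with no fold limit, and leaving out each library. The main edgeR fits were tested on simulated data, in which genes were drawn independently and each had the same spread in all groups. That setting lacks the uneven and shared spread of the members, and its outcome is not given here.

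The 40 members, role groups and other lists were chosen with earlier results of these data known. Values in every library are given for 26 members fixed by name, plus members at the extremes of a comparison, and other lists name at most 4 DEGs of the largest change in LPS+ tlr4f/f-lysM-cre against LPS+ tlr4f/f, with Cdkn1a, Foxm1, Mybl2 and Wee1. Gene positions are from GENCODE M21 (GRCm38) and promoter sequences from RefSeq (GRCm38.p6).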

Additional observations from a re-analysis of the deposited data

Results flagged for a closer look

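The change between the LPS- and LPS+ columns differed between the f/f and cre columns in 2 of the 40 members, by the interaction test of edgeR at an adjusted p below 0.05. That share is near the 4.13% of all genes with a higher interaction at this limit, and 0 of the 40 were DEGs. For Kif23 the interaction was 1.95 ± 0.40 (log2, SE, adjusted p = 0.0178), with adjusted p-values from 0.0139 to 0.0602 when single libraries were left out. For Cdc25b it was 1.72 ± 0.41 (SE, adjusted p = 0.0317), ranging from 0.0250 to 0.0905 in the same way. Kif23 was 17.5 CPM and Cdc25b 33.4 CPM in LPS- f/f library 3, which was low in most other members. Both were higher in LPS+ f/f than in LPS- f/f and higher in LPS+ cre than in LPS- cre, in 3 of 3 libraries each. Under the exchanged headings the same number is the difference between the LPS effects in cells with and without Cre.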

How the results depend on the processing

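The median log2 fold change of the 40 members moved by less than 1 SD between replicates under every alternative run, in all 6 contrasts. Its sign turned in 1 case, LPS+ cre against LPS- f/f without LPS- f/f library 3, from 0.25 to -0.16. The number of DEGs among the members moved more. Shares of all genes are not given for the fits with single libraries left out, nor for every other alternative, so such counts describe the members alone. The relaxed rule below is an adjusted p under 0.05 with no fold limit, so that both limits of the DEG rule change. In LPS+ cre against LPS+ f/f, 31 lower DEGs became 2 with all 12 libraries in a single fit and 21 to 36 with single libraries left out, and 1 member, Ckap2l, was higher by the relaxed rule. In LPS+ cre against LPS- cre, 11 higher DEGs became 37 by DESeq2, 17 in the single fit, 7 with transcripts summed, 32 by the relaxed rule and 0 to 32 with single libraries left out. In LPS+ f/f against LPS- f/f, 0 became 10 by DESeq2, 1 by the relaxed rule and 0 to 6 with single libraries left out. In LPS- cre against LPS- f/f, 2 lower DEGs became 20 by DESeq2, 4 with 10 counts in every library, 17 in the single fit, 15 by the relaxed rule and 2 to 7 with single libraries left out. In LPS+ cre against LPS- f/f DESeq2 gave 1 lower and 1 higher DEG and the relaxed rule 2 lower, and in the interaction, already fitted on all 12 libraries, DESeq2 and the relaxed rule each gave 2 higher. The causes were not tested. RLE size factors moved no count by over 1.5 times. Of 3317 values of single members under alternatives, 120 lost a DEG call, 155 gained one and 0 changed sign while called.

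Replicate numbers are shared between groups, but same-numbered libraries deviated together (r above 0.1) in only 5 of 18 pairs, with r from -0.04 to 0.47, and 10 of 18 matched best with their own number. The largest r were 0.47 and 0.34, for libraries 1 and 2 of LPS- f/f with LPS- cre, where library 3 had 0.01. Between LPS+ f/f and LPS+ cre r was 0.06, 0.07 and 0.19, each matching best with its own number. The libraries were not treated as paired in the main fits. Pooled over contrasts, these counts cannot decide whether libraries of a single contrast were paired. With the replicate block the member DEGs were 32 lower in LPS+ cre against LPS+ f/f, 0 in LPS+ cre against LPS- cre and 22 lower in LPS- cre against LPS- f/f. Without the block these counts were 31, 11 and 2. Depth limits the scarce members: in LPS- cre library 3 Cdc25c was at 0.0933 CPM. Counting intervals would cover counting error only.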
